A study of Mus musculus with 24 samples.

Results

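Amino acid transporters of the mouse kidney were followed in an array experiment on rhabdomyolysis, in which glycerol injected into muscle releases muscle contents that injure the kidney. The genes were chosen by symbol: a gene counted when its symbol began with Slc1a, Slc3a, Slc6a, Slc7a, Slc36a, Slc38a or Slc43a followed by a number. That pattern met 62 of the 19505 genes named on the array. Slc7a6os, which meets the pattern, is named for its position beside Slc7a6 and is not a transporter gene. It was left out of the counts, which leaves 61 transporters in 7 families, each read by 1 probe: 7 of Slc1, 2 of Slc3, 19 of Slc6, 15 of Slc7, 4 of Slc36, 11 of Slc38 and 3 of Slc43. Slc7a6os had group means of 7.57 and 7.28 in the sham groups and of 7.45 and 7.70 in the rhabdomyolysis groups. The pattern used symbols alone, but it was set with earlier results of these data known. Where a gene had several probes, the one with the highest mean over the arrays was used.

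All animals were male C57BL/6N mice aged 10 weeks. Each received 1 of 2 short oligonucleotides under the skin at 20 mg/kg of body weight: anti-miR-22, made against the microRNA miR-22-3p, or a mock molecule. Rhabdomyolysis was induced 24 h later with 50% glycerol in the gastrocnemic muscle, and the kidneys were taken 24 h after that. Sham animals went through the same procedure with no glycerol, so all groups shared the isoflurane narcosis, carprofen at 5 mg/kg per dose and 23 h without drinking water. Of the mild and the severe dose of glycerol in the protocol, the labels do not say which the arrays stand for. The 24 arrays made 4 groups: sham with mock (n = 5), sham with anti-miR-22 (n = 5), rhabdomyolysis with mock (n = 7) and rhabdomyolysis with anti-miR-22 (n = 7). Nothing states that each array was a different animal, so the p-values rest on a spread between samples that may in part be technical. The samples were pieces of whole kidney, in which fewer cells of a type and less RNA per cell cannot be told apart.

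The 2 oligonucleotides differ at 4 of 15 bases, which is why their sequences are given, 5′ to 3′, with those 4 positions in capitals. Counted from the 5′ end of anti-miR-22, the mock carries T3A, A5T, T8A and A12T. The microRNA is shown with its seed, bases 2 to 8, in capitals.
anti-miR-22: ctTcAacTggcAgct
mock: ctAcTacAggcTgct
mmu-miR-22-3p: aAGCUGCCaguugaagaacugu
Anti-miR-22 is the reverse complement of bases 2 to 16 of the 22-base microRNA and so covers the whole seed. The mature microRNA lies at chr11:75463772-75463793 on the plus strand (RefSeq, GRCm38.p6).

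The kidney filters free amino acids and takes nearly all of them back in the proximal tubule. Carriers of the brush border bring them into the cell from the filtrate, and carriers of the basolateral membrane pass them on to the blood. Several work only as pairs, in which a light chain of the Slc7 family is held in the membrane by a heavy chain of the Slc3 family. Another set of carriers brings leucine, glutamine, cystine, serine or arginine into growing or stressed cells, and many of those genes are known targets of the transcription factor ATF4.

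The deposited values are log2 intensities, and differences below are differences of group means on that scale, given with the standard error (SE) of the fit. Folds are these differences turned back to a linear scale and hold for the values as deposited. A gene was called when its limma p-value was below 0.05 after Benjamini-Hochberg adjustment across the 22205 probes. Array medians lay between 5.75 and 5.86 and lower quartiles between 3.91 and 4.03. The precision of a group difference is limited by the number of arrays. Each of the 24 arrays correlated best with the mean of its own group, and correlations between single arrays lay between 0.949 and 0.993. The injury marker Havcr1 read 17.93 to 19.13 in the rhabdomyolysis arrays and 6.41 to 7.74 in 9 of the 10 sham arrays, but 14.59 on sham mock array 1. Lcn2 was also high there, at 13.70. Without that array the calls for glycerol numbered the same (11 higher and 20 lower with mock), and in the oligonucleotide comparisons 0 in place of 1 were lower in sham and 13 in place of 14 lower in rhabdomyolysis.

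After glycerol, the share of transporters that rose was near or below that of all probes, and the share that fell was above it. With mock, 11 of the 61 rose and 20 fell (50.8% called), against 18.0% and 16.4% of all probes (34.4% called in all). With anti-miR-22, 10 rose and 22 fell (52.5% called), against 19.8% and 17.6% of all probes (37.4% in all). The median difference was -0.13 over the transporters in both comparisons and -0.001 and 0.003 over all probes. The group means of the 2 comparisons share no array. Both comparisons came from the same fit, with a shared estimate of each probe's spread, so their calls are not independent. 9 transporters rose in both comparisons, 20 fell in both, 0 moved in opposite directions and 27 were called in neither. Slc1a4 and Slc38a7 were called higher with mock alone, Slc1a5 was called higher and Slc38a3 and Slc6a17 were called lower with anti-miR-22 alone. None of these 5 was called in the test of the difference between the responses. The gene lists below were chosen with earlier results of these data known. Their counts are descriptions, to be read beside the shares over all probes given above.

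**Figure D1:**
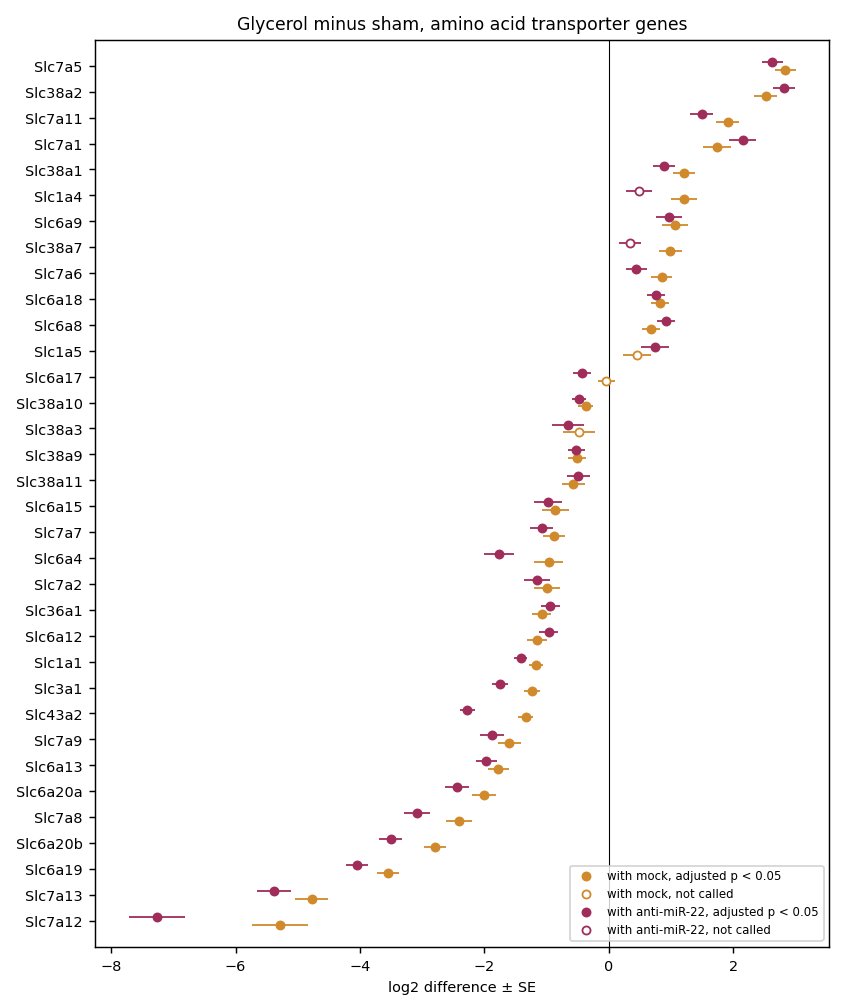
Log2 difference between rhabdomyolysis and sham arrays (horizontal axis, ± SE) for the 34 transporter genes called in at least 1 of the 2 glycerol comparisons, in the order of the difference with mock. Filled points have an adjusted p below 0.05; the differences run from -7.27 for Slc7a12 with anti-miR-22 to 2.84 for Slc7a5 with mock.

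Most of the listed carriers of the brush border fell. Of 10 genes listed for apical transport in the proximal tubule, 8 fell and 1 rose in each comparison, with a median difference of -1.42 with mock and -1.81 with anti-miR-22. The remaining gene, the proline and glycine carrier Slc36a2, had group means between 3.24 and 3.67, all below the lowest array quartile, and was not called.

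Slc6a19, the main carrier of neutral amino acids at the brush border, fell furthest among the Slc6 genes. Its 5 sham mock arrays read 14.75, 15.13, 15.54, 15.57 and 15.79, and its rhabdomyolysis mock arrays ran from 11.11 over a median of 11.89 to 12.04. The sham anti-miR-22 arrays read 15.15, 15.19, 15.48, 15.55 and 15.59, and those of rhabdomyolysis with anti-miR-22 ran from 10.86 over 11.33 to 11.83. Every rhabdomyolysis array was thus below every sham array. The difference was -3.55 ± 0.18 with mock (11.7-fold lower, adjusted p = 5.73e-16) and -4.05 ± 0.18 with anti-miR-22 (16.5-fold lower, adjusted p = 2.21e-17).

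Slc6a18, the next protein-coding gene beside Slc6a19 and a brush border carrier of glycine and other neutral amino acids, went the other way. Its sham mock arrays read 14.59, 14.76, 14.80, 15.01 and 15.04, and its rhabdomyolysis mock arrays ran from 15.35 over 15.61 to 15.96. With anti-miR-22 the sham arrays read 14.53, 14.75, 14.84, 15.03 and 15.11, and the rhabdomyolysis arrays ran from 15.28 over 15.67 to 15.90. The groups did not overlap in either pair, and Slc6a18 was the 1 gene of the apical list that rose. The differences were 0.82 ± 0.14 (adjusted p = 2.43e-05) and 0.76 ± 0.14 (adjusted p = 6.22e-05). Cltrn, the collectrin protein that both carriers need at the renal brush border, fell by 1.07 with mock and by 0.89 with anti-miR-22, and both were called.

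Slc6a20a and Slc6a20b, neighbouring close relatives of which the first carries proline and other imino acids, fell together. For Slc6a20b the sham mock arrays read 15.35, 15.67, 15.68, 15.73 and 15.78, and the rhabdomyolysis mock arrays ran from 12.33 over 12.65 to 13.57. With anti-miR-22 the sham arrays read 15.29, 15.41, 15.50, 15.55 and 15.55, and the rhabdomyolysis arrays ran from 11.64 over 11.80 to 12.29. No arrays overlapped between sham and rhabdomyolysis. The difference was -2.80 ± 0.18 with mock (6.97-fold lower, adjusted p = 1.07e-13) and -3.51 ± 0.18 with anti-miR-22 (11.4-fold lower, adjusted p = 4.74e-16). Slc6a20a differed by -2.01 and -2.44, both called; whether the probes of these near copies read each other's RNA was not tested.

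The cystine and basic amino acid system consists of the heavy chain Slc3a1 and the light chain Slc7a9, whose loss causes cystinuria, and of Slc7a13, a second light chain of Slc3a1 that carries aspartate, glutamate and cystine. All 3 fell. Slc3a1 read 15.63, 15.63, 15.74, 15.81 and 16.09 in sham mock and from 14.40 over 14.53 to 14.67 in rhabdomyolysis mock. It read 15.74, 15.78, 15.80, 15.81 and 15.82 in sham with anti-miR-22 and from 13.49 over 14.06 to 14.45 in rhabdomyolysis with anti-miR-22. The differences of -1.24 ± 0.13 (adjusted p = 6.6e-09) and -1.75 ± 0.13 (adjusted p = 3.72e-12) left no overlap. Slc7a9 differed by -1.60 and -1.88.

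For Slc7a13 the sham mock arrays read 14.58, 15.39, 15.56, 15.67 and 15.83 against 9.77, 10.68 and 11.49 as the lowest, median and highest of rhabdomyolysis mock. In sham with anti-miR-22 it read 14.27, 14.48, 14.66, 14.69 and 14.84, and in rhabdomyolysis with anti-miR-22 it ran from 8.26 over 8.98 to 9.92. The rhabdomyolysis arrays were far below the sham arrays in both pairs. The difference was -4.78 ± 0.27 with mock (27.4-fold lower, adjusted p = 4.6e-15) and -5.38 ± 0.27 with anti-miR-22 (41.7-fold lower, adjusted p = 2.38e-16).

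Slc7a12, a related carrier of small neutral amino acids, showed the largest differences of the 61 genes and also the widest spread among sham arrays. The sham mock arrays read 8.94, 10.21, 10.53, 11.87 and 12.28 (mean 10.77 ± 1.34, SD, n = 5), and the sham anti-miR-22 arrays 9.96, 11.40, 11.70, 12.68 and 12.94. Rhabdomyolysis mock ran from 4.78 over 5.59 to 6.09, and rhabdomyolysis with anti-miR-22 from 3.63 over 4.49 to 5.39. The sham arrays, although spread widely, all lay above the rhabdomyolysis arrays. The differences of -5.29 ± 0.45 (adjusted p = 3.5e-11) and -7.27 ± 0.45 (adjusted p = 2.14e-14) have sizes that depend on the array background, since the rhabdomyolysis means of 5.48 and 4.46 were below every array's median. Their own difference, -1.99, was not called (adjusted p = 0.143).

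Slc1a1, which takes up glutamate and aspartate at the brush border, fell by 1.17 with mock and by 1.42 with anti-miR-22, with adjusted p of 3.31e-10 and 4.49e-12. It was the 1 called gene of 5 glutamate carriers. The others, Slc1a2, Slc1a3, Slc1a6 and Slc1a7, are known chiefly from brain and retina, and their group means were 2.91 to 5.89. Slc36a1, a proton-coupled carrier of lysosome and plasma membrane, differed by -1.08 and -0.94, both called. Slc7a2, a carrier of cationic amino acids, differed by -0.99 and -1.15, both called.

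**Figure D2:**
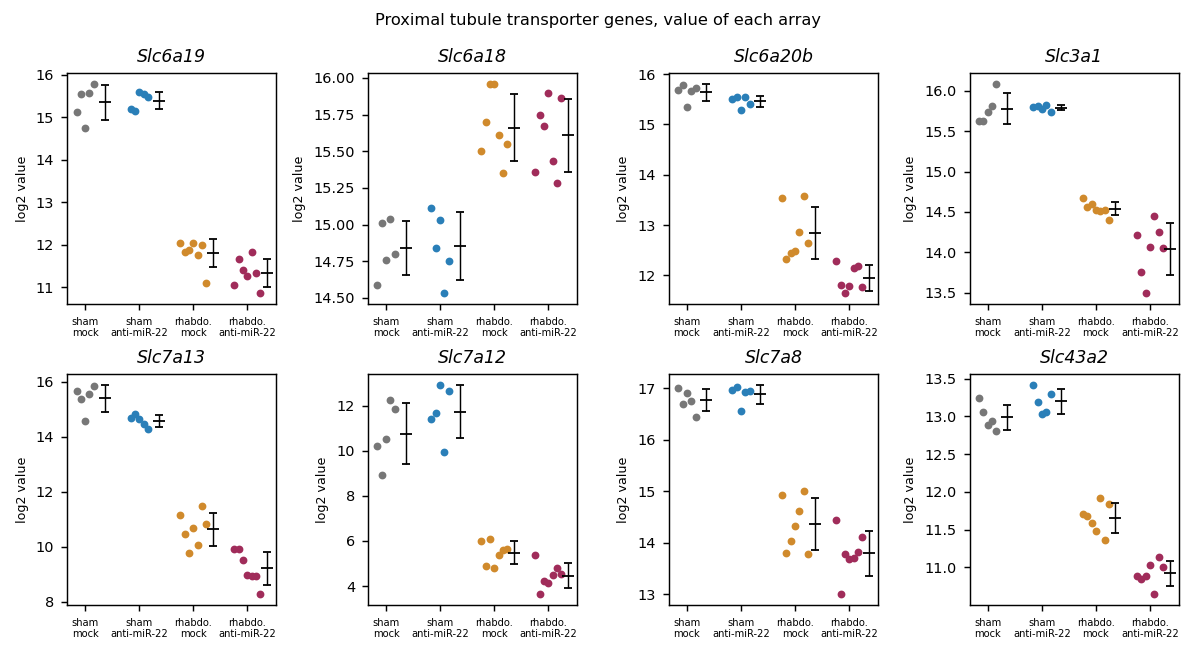
Log2 values of 8 transporter genes of the tubule on every array (points), by group, with the group mean ± SD beside them; n = 5 in the sham groups and 7 in the rhabdomyolysis groups. Slc6a18 lies higher in rhabdomyolysis and the other 7 genes lie lower, with no overlap between sham and rhabdomyolysis arrays of the same oligonucleotide.

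On the basolateral side, 3 of 6 listed genes fell and 1 rose with mock, and 4 fell and 1 rose with anti-miR-22. The median differences were -0.68 and -0.87. Slc7a8, the light chain LAT2 that exchanges neutral amino acids, differed most. Its sham mock arrays read 16.45, 16.70, 16.75, 16.91 and 17.01 against 13.78, 14.33 and 15.00 as the lowest, median and highest of rhabdomyolysis mock. With anti-miR-22 the sham arrays read 16.55, 16.93, 16.94, 16.96 and 17.02 and the rhabdomyolysis arrays ran from 13.00 over 13.78 to 14.44. All rhabdomyolysis arrays were below all sham arrays. The difference was -2.41 ± 0.21 with mock (5.3-fold lower, adjusted p = 6.54e-11) and -3.08 ± 0.21 with anti-miR-22 (8.48-fold lower, adjusted p = 2.16e-13).

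Slc7a7, the light chain whose loss causes lysinuric protein intolerance, fell by 0.88 (adjusted p = 0.000255) and by 1.08 (adjusted p = 1.4e-05). Slc3a2, the heavy chain of Slc7a5, Slc7a6, Slc7a7, Slc7a8 and Slc7a11, was not called for glycerol. It read 16.90, 17.01, 17.28, 17.29 and 17.36 in sham mock and from 17.23 over 17.40 to 17.62 in rhabdomyolysis mock. It read 16.62, 16.85, 17.10, 17.18 and 17.20 in sham with anti-miR-22 and from 16.69 over 16.90 to 17.13 in rhabdomyolysis with anti-miR-22. The groups overlapped, and the differences were 0.26 ± 0.13 (adjusted p = 0.123) and -0.06 ± 0.13 (adjusted p = 0.775). The light chains it serves were thus called in both directions while the heavy chain itself was not called.

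Slc7a6, the light chain y+LAT2, was the basolateral gene that rose, by 0.85 ± 0.17 with mock (adjusted p = 0.000151) and by 0.44 ± 0.17 with anti-miR-22 (adjusted p = 0.0409). The second of these calls was lost without sham anti-miR-22 arrays 1 or 4 and without rhabdomyolysis anti-miR-22 arrays 2, 3, 5, 6 or 7, and under a moderation with trend (adjusted p 0.0507 to 0.172 in those fits). The glutamine carrier Slc38a3, known to rise in the proximal tubule in acidosis, differed by -0.48 with mock (adjusted p = 0.171) and by -0.66 with anti-miR-22 (adjusted p = 0.0452). That call was lost in 11 fits, 9 of them without 1 array (sham anti-miR-22 arrays 2, 3, 4 or 5, or anti-miR-22 rhabdomyolysis arrays 2, 3, 4, 6 or 7), with adjusted p of 0.0542 to 0.128. Slc43a2 is described with the oligonucleotide below.

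The carriers listed for growth and stress moved the other way. Of 11 genes, 7 rose and 0 fell in each glycerol comparison, with median differences of 1.21 and 0.89. Over all probes, 18.0% rose with mock and 19.8% with anti-miR-22. The genes were listed for known induction and with earlier results of these data known, so the count is a description. The 4 that were not called with mock, Slc1a5, Slc3a2, Slc43a1 and Slc7a3, had differences of -0.10 to 0.45, and of these Slc43a1 and Slc7a3 had all group means below the array medians.

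Slc7a5, the light chain LAT1 that exchanges leucine and other large neutral amino acids, rose most with mock. Its sham mock arrays read 5.97, 6.02, 6.08, 6.56 and 6.74, and its rhabdomyolysis mock arrays ran from 8.86 over 9.10 to 9.40. With anti-miR-22 the sham arrays read 5.64, 5.64, 5.87, 6.12 and 6.27, and the rhabdomyolysis arrays ran from 8.11 over 8.44 to 8.98. Sham arrays lay near the array medians and rhabdomyolysis arrays well above them, with no overlap. The difference was 2.84 ± 0.17 with mock (7.16-fold higher, adjusted p = 9.76e-15) and 2.63 ± 0.17 with anti-miR-22 (6.18-fold higher, adjusted p = 4.61e-14).

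Slc38a2, which takes up glutamine, alanine and other small neutral amino acids and is known to be induced by amino acid shortage, rose as well. It read 11.87, 11.91, 11.98, 12.44 and 12.58 in sham mock and from 14.50 over 14.63 to 14.98 in rhabdomyolysis mock. It read 12.06, 12.43, 12.47, 12.59 and 12.76 in sham with anti-miR-22 and from 14.84 over 15.09 to 16.04 in rhabdomyolysis with anti-miR-22. No arrays overlapped, and the differences were 2.52 ± 0.18 (adjusted p = 1.47e-12) and 2.82 ± 0.18 (adjusted p = 1.01e-13). Its neighbour Slc38a1, a carrier of the same class, rose by 1.21 and 0.89, both called. Slc38a4, the neighbour on the other side, differed by -0.19 and -0.26 and was not called.

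Slc7a11, the cystine and glutamate exchanger that feeds glutathione synthesis, read 4.86, 5.52, 5.61, 5.67 and 5.82 in sham mock and from 7.13 over 7.42 to 7.82 in rhabdomyolysis mock. With anti-miR-22 it read 5.22, 5.44, 5.66, 5.85 and 5.99 in sham and from 6.68 over 7.14 to 7.69 in rhabdomyolysis. The groups did not overlap. Its differences were 1.91 ± 0.18 (3.77-fold higher, adjusted p = 5.62e-10) and 1.49 ± 0.18 (2.82-fold higher, adjusted p = 6.35e-08).

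Slc7a1, the main carrier of arginine and lysine of growing cells, read 5.32, 5.65, 6.35, 6.45 and 6.68 in sham mock and from 7.28 over 7.89 to 8.19 in rhabdomyolysis mock. With anti-miR-22 it read 6.18, 6.20, 6.21, 6.24 and 6.34 in sham and from 7.68 over 8.31 to 9.32 in rhabdomyolysis. Here too every rhabdomyolysis array exceeded every sham array, by differences of 1.74 ± 0.22 (adjusted p = 1.56e-07) and 2.15 ± 0.22 (adjusted p = 2.24e-09). Slc7a2, its relative described above, had fallen. The glycine carrier Slc6a9 rose by 1.06 and 0.97, both called.

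The exchangers Slc1a4 and Slc1a5, which carry serine, alanine and glutamine, were each called in 1 comparison. Slc1a4 differed by 1.21 ± 0.21 with mock (adjusted p = 2.35e-05) and by 0.49 ± 0.21 with anti-miR-22 (adjusted p = 0.0663). The second was called in 6 of the other fits (adjusted p 0.0211 to 0.0486), among them those without sham mock array 4, rhabdomyolysis mock array 3 or anti-miR-22 rhabdomyolysis array 5. Slc1a5 differed by 0.45 ± 0.23 with mock (adjusted p = 0.132) and by 0.74 ± 0.23 with anti-miR-22 (adjusted p = 0.00934). The difference between the responses was not called for either gene. The lysosomal glutamine carrier Slc38a7 differed by 0.99 ± 0.18 with mock (adjusted p = 3.81e-05) and by 0.34 ± 0.18 with anti-miR-22 (adjusted p = 0.142, and 0.0389 without sham anti-miR-22 array 1). Slc38a9, the lysosomal arginine carrier that reports arginine to mTORC1, fell by 0.51 and 0.52, both called.

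**Figure D3:**
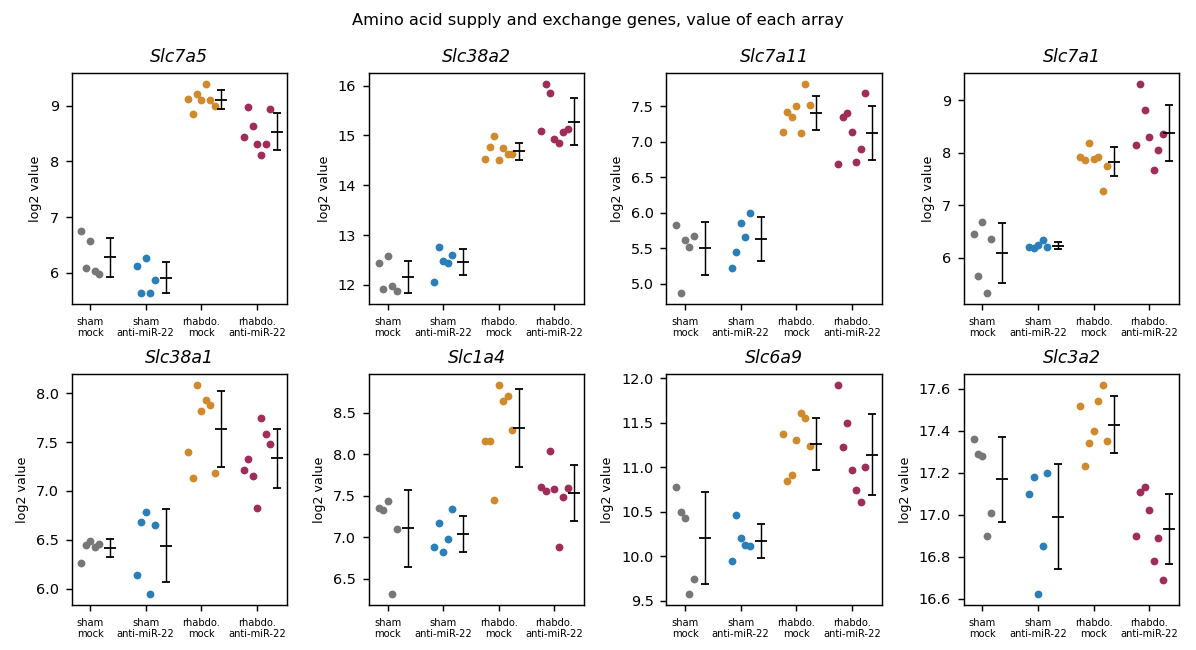
Log2 values of 8 genes of amino acid supply and exchange on every array (points), by group, with the group mean ± SD beside them; n = 5 in the sham groups and 7 in the rhabdomyolysis groups. Slc7a5, Slc38a2, Slc7a11, Slc7a1, Slc38a1 and Slc6a9 are higher in rhabdomyolysis with both oligonucleotides, while the arrays of the heavy chain Slc3a2 overlap.

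Promoter sequence from RefSeq (GRCm38.p6, 250 bases before to 50 after a start) was available for 44 of the 61 genes and for 27025 genes in all. It was searched on both strands for the core of the composite element that ATF4 binds, TGATGNAA, and for the core of the antioxidant response element that Nfe2l2 binds, TGACNNNGC. No transporter held both. TGATGNAA was found in 4.51% of all genes and in 4 of 44 transporters (9.09%): Slc1a4, Slc6a21, Slc7a11 and Slc7a7. In the glycerol comparisons Slc7a11 rose and Slc7a7 fell in both, Slc1a4 was called higher with mock alone and Slc6a21 was not called. Slc7a11 and Slc7a7 each held the motif in 2 places before an annotated start. The windows of Slc7a11 are shown as an example, on the gene's strand with the motif in capitals.
Slc7a11, chr3:50443662-50443689, minus strand, -66 to -59 from the start: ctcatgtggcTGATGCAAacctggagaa
Slc7a11, chr3:50443643-50443670, minus strand, -47 to -40 from the start: cctggagaatTTGCATCAtcatgcagcc
The second is the same core read on the other strand. A match is a description of letters and not a measured site.

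TGACNNNGC was found in 14.0% of all genes and in 8 of 44 transporters (18.2%). Of the 9 transporters that rose in both glycerol comparisons, 5 had promoter sequence, and 4 of those held the motif: Slc38a2, Slc6a9, Slc7a1 and Slc7a6. Of the 20 that fell in both, 16 had promoter sequence and 2 held it, Slc36a1 and Slc6a13. These groups were formed from the measured values and are small, so the shares are descriptions. A window is shown for 2 of the genes that rose, with the motif in capitals on the gene's strand.
Slc38a2, chr15:96699737-96699765, minus strand, -27 to -19 from the start: ccccgcccacTGACGCGGCgccccgccgc
Slc7a6, chr8:106168843-106168871, plus strand, -68 to -60 from the start: ccggtgcgagTGACGTGGCgtgggcgggg
The longer HNF1 palindrome, GTTAATNATTAAC, was found in 3 of the 27025 genes (0.0111%) and in 0 of the 44 transporters. A motif this rare could hardly be met in 44 genes, so its absence there carries no information.

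The genes of the ATF4 pathway outside the transporters were mostly higher. Of 21 measured, 16 rose and 3 fell with mock, and 15 rose and 4 fell with anti-miR-22, with median differences of 1.40 and 1.43. Asns, the asparagine synthetase, differed by 3.29 and 3.30, and Psat1, an enzyme of serine synthesis, by 3.20 and 2.55. Atf4 itself differed by 1.40 and 2.36. Among those that fell were Shmt2 (-2.00 and -2.26), of mitochondrial serine and glycine conversion, and Cth (-1.84 and -1.54), which makes cysteine.

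Enzymes of renal amino acid metabolism fell with the brush border carriers. Of 31 measured, 25 fell and 3 rose with mock, and 24 fell and 3 rose with anti-miR-22, with median differences of -1.25 and -1.44. Gatm, the first enzyme of creatine synthesis and also a listed proximal tubule marker, differed by -5.85 and -5.88, and the brush border peptidase Mep1b by -5.21 and -5.96. Arg2, the mitochondrial arginase, rose by 4.76 and 5.36, and Gpt2 by 1.71 in both comparisons. Of 10 partners and other amino acid or peptide carriers, 3 rose and 4 fell with mock, and 2 rose and 5 fell with anti-miR-22. Slc15a2, the brush border peptide carrier, differed by -3.40 and -3.74, and Slc15a3, a lysosomal peptide carrier of immune cells, by 2.47 and 0.77.

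Of 21 genes of amino acid sensing by mTORC1, Slc38a9 among them, 4 rose and 10 fell with mock, and 4 rose and 11 fell with anti-miR-22. Castor2 and Sesn1 differed most among those that fell with mock (-1.95 and -1.83). Sesn3 and Rraga differed most among those that rose (0.91 and 0.77). Of 8 measured transcription factors of the tubule, 3 rose and 4 fell with mock, and 2 rose and 4 fell with anti-miR-22. Myc rose by 5.85 and 5.68, while Hnf4a, which maintains proximal tubule genes, fell by 1.19 and 1.45.

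Markers of nephron cells moved with the transporters that fell. All 9 listed markers of proximal tubule segments S1 and S2 fell in both comparisons, and their mean level was 15.67 to 16.12 over sham arrays and 12.65 to 13.91 over rhabdomyolysis arrays. The 7 markers of segment S3 also fell in both, from 12.89 to 13.91 in sham arrays to 10.53 to 11.92. Of 5 markers of the thick ascending limb, 5 fell, as did 6 of 6 of the distal convoluted and connecting tubule and 9 of 10 of the collecting duct, in both comparisons. All 7 markers of injured tubule rose in both, from 7.49 to 10.45 in sham arrays to 14.02 to 14.73. The part of these shifts in the transporter differences was not tested.

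Most of the listed macrophage and neutrophil markers rose with glycerol. Of 9 macrophage markers, 6 rose and 1 fell in both comparisons, and their mean level was 6.07 to 6.71 in sham arrays and 7.14 to 8.0 in rhabdomyolysis arrays. Adgre1, a defining macrophage marker, differed by 0.03 and -0.24 and was not called. Of 6 neutrophil markers, 5 rose with mock and 4 with anti-miR-22. Their mean level was 4.16 to 4.53 in sham arrays, below every array's median, and 4.56 to 5.93 in rhabdomyolysis arrays. The part of macrophages and neutrophils in the rise of Slc7a5, Slc7a11 and the other carriers was not tested. Of 8 markers of skeletal muscle, 0 changed with mock and 1 rose with anti-miR-22, at mean levels of 4.02 to 4.56. With mock, 0 of 4 T cell markers changed, 1 of 5 adipose markers and the 1 measured red cell marker fell, and of 7 adrenal markers 1 rose and 1 fell.

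The carriers of osmolytes, creatine and neurotransmitters were called about as often as all probes. Of 11 measured, 1 rose and 3 fell in each glycerol comparison (36.4% called). Over all probes, 34.4% were called with mock and 37.4% with anti-miR-22. Slc6a8, which takes up creatine, was the gene that rose. It read 16.65, 16.73, 16.89, 16.91 and 16.92 in sham mock and from 17.18 over 17.33 to 17.94 in rhabdomyolysis mock. It read 16.60, 16.66, 16.87, 16.89 and 16.91 in sham with anti-miR-22 and from 17.54 over 17.63 to 18.13 in rhabdomyolysis with anti-miR-22. The groups did not overlap, and the differences were 0.68 ± 0.14 (adjusted p = 0.000227) and 0.92 ± 0.14 (adjusted p = 2.74e-06). The creatine carrier was thus higher on the same arrays on which Gatm, of creatine synthesis, was lower.

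Slc6a12, the betaine carrier of the medulla, fell by 1.16 and 0.97, both called, although all its group means, 3.52 to 4.68, were below the array medians. Slc6a4, the serotonin carrier, fell by 0.97 (adjusted p = 0.00156) and by 1.77 (adjusted p = 3.78e-07). The taurine carrier Slc6a6 differed by 0.31 (adjusted p = 0.238) and 0.46 (adjusted p = 0.0544). The second was called in 11 other fits (adjusted p 0.0196 to 0.0491), among them those without sham mock arrays 3 or 5, rhabdomyolysis mock array 5 or anti-miR-22 rhabdomyolysis arrays 5, 6 or 7. Slc6a13 is described below, with the oligonucleotide.

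Of the remaining members, Slc6a15, a carrier of branched-chain amino acids and proline, fell by 0.86 and 0.98, both called. Slc38a10 differed by -0.37 and -0.48 and Slc38a11 by -0.57 and -0.49, all called, although all group means of Slc38a11, 4.30 to 5.01, were below the array medians. Leaving out single arrays ended the calls of Slc38a11. The one with mock was lost without sham mock array 5 (adjusted p = 0.0701), and the one with anti-miR-22 without sham anti-miR-22 arrays 1, 3 or 5 or anti-miR-22 rhabdomyolysis arrays 2, 6 or 7 (adjusted p 0.0567 to 0.134). Slc6a17, a vesicular carrier, differed by -0.04 with mock (adjusted p = 0.869) and by -0.43 with anti-miR-22 (adjusted p = 0.0143).

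27 transporters were called in neither glycerol comparison. In 11 of them, Slc1a6, Slc36a2, Slc36a3, Slc38a8, Slc6a2, Slc6a21, Slc6a3, Slc6a5, Slc7a10, Slc7a14 and Slc7a15, all group means were below the highest of the arrays' lower quartiles, and no direction was read from them. In 7 more, Slc1a3, Slc1a7, Slc43a1, Slc6a11, Slc6a14, Slc6a7 and Slc7a3, all group means were below the array medians. The other 9 were Slc1a2, Slc36a4, Slc38a4, Slc38a5, Slc38a6, Slc3a2, Slc43a3, Slc6a6 and Slc7a4. The lysosomal carrier Slc36a4 differed by -0.03 and -0.09, and Slc38a6 by -0.11 and -0.24.

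In sham animals, few genes of any kind were called between anti-miR-22 and mock. Of the 61 transporters, 2 were higher and 1 was lower (4.92% called), against 3.85% and 3.31% of all probes (7.16% called in all). In rhabdomyolysis, 3 were higher and 14 lower (27.9% called), against 9.48% and 10.2% of all probes (19.6% in all). The median difference was 0.01 in sham and -0.09 in rhabdomyolysis over the transporters, and 0.003 and 0.015 over all probes. These comparisons use the same arrays as the glycerol comparisons.

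**Figure D4:**
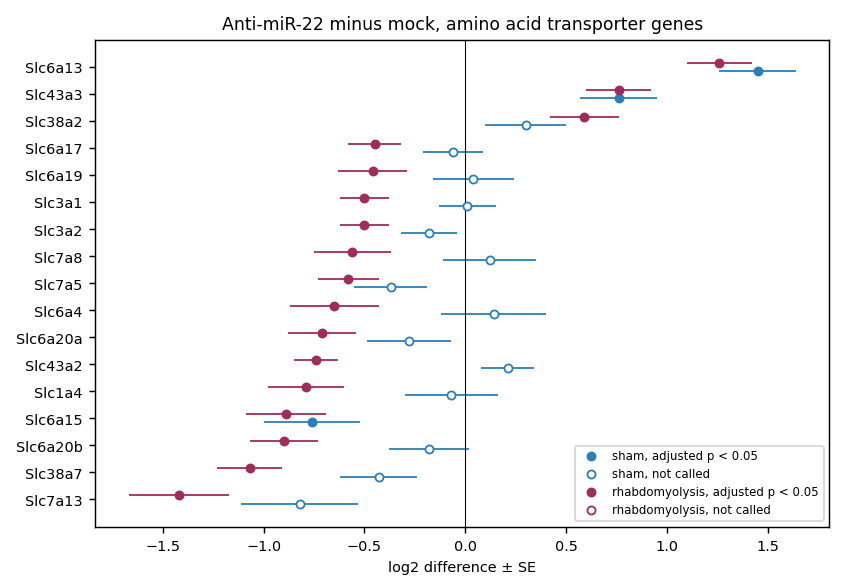
Log2 difference between anti-miR-22 and mock arrays (horizontal axis, ± SE) for the 17 transporter genes called in sham or in rhabdomyolysis animals, in the order of the difference in rhabdomyolysis. Filled points have an adjusted p below 0.05; Slc6a13 and Slc43a3 are higher and Slc6a15 lower in both.

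Slc6a13, the GAT2 carrier of GABA, betaine and taurine, was higher with anti-miR-22 in both settings. In sham animals the mock arrays read 11.98, 12.16, 12.22, 12.23 and 12.65 and the anti-miR-22 arrays 13.50, 13.58, 13.66, 13.68 and 14.05. In rhabdomyolysis the mock arrays ran from 10.03 over 10.47 to 11.27 and the anti-miR-22 arrays from 11.43 over 11.72 to 12.07. Neither pair overlapped. The difference was 1.45 ± 0.19 in sham (2.73-fold higher, adjusted p = 3.01e-06) and 1.26 ± 0.16 in rhabdomyolysis (2.4-fold higher, adjusted p = 3.31e-07). Glycerol lowered the same gene, by 1.78 with mock (adjusted p = 5.72e-10) and by 1.97 with anti-miR-22 (adjusted p = 5.85e-11). With mock the means were 12.25 in sham and 10.47 in rhabdomyolysis, and with anti-miR-22 they were 13.69 and 11.73. The glycerol responses differed by -0.18, which was not called (limma adjusted p = 0.826).

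Slc43a3, known as a carrier of purine bases and placed in a family of amino acid carriers, differed with the oligonucleotide and not with glycerol. Its sham arrays read 10.00, 10.32, 10.43, 10.58 and 10.91 with mock and 10.73, 11.08, 11.35, 11.42 and 11.46 with anti-miR-22. In rhabdomyolysis it ran from 9.89 over 10.45 to 10.90 with mock and from 10.78 over 11.19 to 11.45 with anti-miR-22. The ranges overlapped in both pairs, by the highest mock and the lowest anti-miR-22 arrays. The difference was 0.76 ± 0.19 in sham (adjusted p = 0.00997) and 0.76 ± 0.16 in rhabdomyolysis (adjusted p = 0.000708), and the glycerol differences were -0.01 ± 0.18 with either oligonucleotide.

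Slc6a15 was lower with anti-miR-22, by 0.76 ± 0.24 in sham (adjusted p = 0.0453) and by 0.89 ± 0.20 in rhabdomyolysis (adjusted p = 0.00143). Its sham arrays read 8.81, 9.0, 9.55, 9.56 and 10.06 with mock and 8.21, 8.33, 8.56, 8.94 and 9.11 with anti-miR-22, and overlapped. In rhabdomyolysis the mock arrays ran from 8.21 over 8.50 to 9.40 and the anti-miR-22 arrays from 7.06 over 7.74 to 8.13. The call in sham was lost in 13 fits (adjusted p 0.0505 to 0.162): with only the 2 groups compared, and without sham mock arrays 1, 2 or 4, sham anti-miR-22 arrays 2, 4 or 5, rhabdomyolysis mock arrays 2, 5 or 7, or anti-miR-22 rhabdomyolysis arrays 5, 6 or 7.

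**Figure D5:**
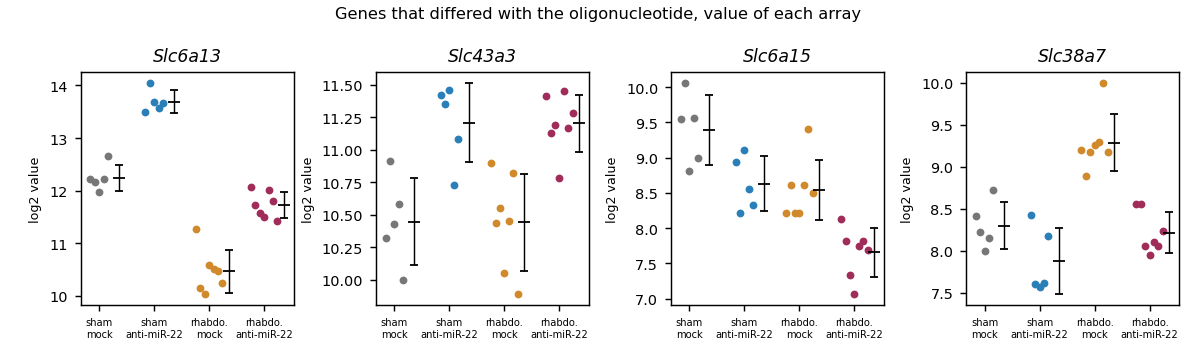
Log2 values of Slc6a13, Slc43a3, Slc6a15 and Slc38a7 on every array (points), by group, with the group mean ± SD beside them; n = 5 in the sham groups and 7 in the rhabdomyolysis groups. Slc6a13 and Slc43a3 are higher with anti-miR-22 in both settings, and Slc38a7 is lower with anti-miR-22 in rhabdomyolysis, 8.21 against 9.29.

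In rhabdomyolysis animals, of the 20 transporters that glycerol lowered in both comparisons, 9 were lower with anti-miR-22 than with mock, 10 were not called and 1, Slc6a13, was higher. Over all probes, 10.2% were lower and 9.48% higher. The 20 were picked by values of the same rhabdomyolysis arrays, so this count is a description and not a test. Of the 10 apical genes, 5 were lower with anti-miR-22 and 0 higher: Slc7a13, Slc6a20b, Slc6a20a, Slc3a1 and Slc6a19. Slc7a13 was lower by 1.42 ± 0.25 (adjusted p = 6.26e-05) and Slc6a20b by 0.90 ± 0.17 (adjusted p = 0.000149), the latter with no overlap of its arrays. Slc6a20a and Slc3a1 were lower by 0.71 and 0.50. Slc6a19 was lower by 0.46 with an adjusted p of 0.0494, a call that was lost in 20 fits, among them all fits without 1 array other than those without sham mock arrays 3 or 5, rhabdomyolysis mock array 7 or anti-miR-22 rhabdomyolysis arrays 2 or 5 (adjusted p 0.0515 to 0.125). Of the 9 markers of proximal tubule segments S1 and S2, 4 were also lower and 1 higher, and of the 7 of segment S3, 2 were lower and 1 higher; the part of these in the transporter differences was not tested.

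Of the 6 basolateral genes, 3 were lower with anti-miR-22 in rhabdomyolysis and 0 higher. The heavy chain Slc3a2 was lower by 0.50 ± 0.12 (adjusted p = 0.00216), with no overlap. Slc43a2 was lower by 0.74 ± 0.11 (adjusted p = 1.05e-05). Slc7a8 was lower by 0.56 (adjusted p = 0.0351), a call lost in 9 fits, 7 of them without 1 array (rhabdomyolysis mock arrays 1, 5 or 6, or anti-miR-22 rhabdomyolysis arrays 2, 3, 4 or 5), with adjusted p of 0.0528 to 0.101.

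Of the 11 growth and stress carriers, 3 were lower and 1 higher. Slc7a5 was lower by 0.58 ± 0.15 (adjusted p = 0.00577) and Slc1a4 by 0.79 ± 0.19 (adjusted p = 0.00311); the third was Slc3a2. Slc38a2 was higher by 0.59 ± 0.17 (adjusted p = 0.0107). Genes that glycerol raised were thus called in both directions. Between the same arrays, 2 of 9 macrophage markers were lower and 0 higher (median -0.29), and 2 of 6 neutrophil markers were higher and 0 lower (median 0.36); their part in these differences was not tested. In the ATF4 list, 7 of 21 were higher and 4 lower: Mthfd2, of mitochondrial folate metabolism, differed by 1.23, Nupr1 by 0.86, Phgdh by -1.32 and Ddit4 by -1.10.

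Slc38a7 differed most among the other genes. Its arrays ran from 8.89 over 9.20 to 10.00 with mock and from 7.95 over 8.10 to 8.55 with anti-miR-22, with no overlap, a difference of -1.07 ± 0.16 (2.1-fold lower, adjusted p = 8.53e-06). In sham animals it read 7.99, 8.15, 8.22, 8.41 and 8.72 with mock and 7.57, 7.60, 7.61, 8.17 and 8.42 with anti-miR-22, which overlapped (-0.43, adjusted p = 0.223). Slc6a17 was lower by 0.45 in rhabdomyolysis (adjusted p = 0.00943). Slc6a4 was lower by 0.65 (adjusted p = 0.0338), a call lost in 9 fits, 8 of them without 1 array (rhabdomyolysis mock arrays 1, 3, 6 or 7, or anti-miR-22 rhabdomyolysis arrays 2, 3, 6 or 7), with adjusted p of 0.05 to 0.105. Slc7a1 and Slc7a12 differed by 0.55 and -1.02 and were not called (adjusted p = 0.0542 and 0.0792). Slc7a1 was called in 9 other fits (adjusted p 0.0166 to 0.0479), among them those without sham mock arrays 3 or 4, rhabdomyolysis mock array 3 or anti-miR-22 rhabdomyolysis arrays 5 or 6. Slc7a12 was called in 5 (adjusted p 0.00331 to 0.048), among them those without sham mock array 2, anti-miR-22 sham array 4 or anti-miR-22 rhabdomyolysis array 1.

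The test of whether the glycerol response itself differed between the oligonucleotides called 1 transporter lower and 0 higher, against 0.176% and 0.207% of all probes (0.383% called in all). That gene was Slc43a2, the basolateral LAT4 uniporter that lets leucine, phenylalanine and other neutral amino acids out of the proximal tubule cell. Its sham arrays read 12.81, 12.89, 12.94, 13.06 and 13.24 with mock and 13.03, 13.06, 13.19, 13.29 and 13.42 with anti-miR-22. In rhabdomyolysis the mock arrays ran from 11.36 over 11.68 to 11.92 and the anti-miR-22 arrays from 10.64 over 10.89 to 11.14. The oligonucleotide groups overlapped in sham and not in rhabdomyolysis. Slc43a2 fell by 1.34 ± 0.12 with mock (2.53-fold, adjusted p = 2.81e-10) and by 2.28 ± 0.12 with anti-miR-22 (4.87-fold, adjusted p = 1.36e-15), and the responses differed by -0.95 ± 0.18 (adjusted p = 0.0134). This call held in every alternative run, with differences from -1.01 to -0.89.

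The gene for Slc43a2 lies on chromosome 11 near the gene for miR-22 itself, with 4 protein-coding genes between them in the RefSeq order (Tlcd2, Prpf8, Rilp and Scarf1). None of those 4 was called for the difference between the glycerol responses. With mock, 2 of the 4, Rilp and Scarf1, were lower after glycerol, by 1.61 and 1.21. With anti-miR-22, 3 of the 4 were lower: Rilp by 1.40, Tlcd2 by 1.31 (adjusted p = 0.000105) and Prpf8 by 0.34 (adjusted p = 0.0336). The responses of Tlcd2 and Prpf8 differed by -0.84 and -0.56, which were not called (adjusted p = 0.322 and 0.147), and those of Rilp and Scarf1 by 0.21 and 0.73. Prpf8, a core protein of the spliceosome, was lower with anti-miR-22 in rhabdomyolysis by 0.87 (adjusted p = 1.17e-06). These genes were chosen for their position after the result for Slc43a2 had been seen.

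Among the 20 transporters that fell with both oligonucleotides, 17 (85%) had the larger difference with anti-miR-22, with medians of -1.20 with mock and -1.76 with anti-miR-22. Among all 2810 probes that fell in both, 62.6% had the larger difference with anti-miR-22. Of the 9 transporters that rose in both, 3 (33.3%) had the larger difference with anti-miR-22, against 58.6% of 3216 probes. Of these 29 genes, the difference between the responses was called for Slc43a2 alone.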

How the data were processed

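Total RNA of 24 kidney samples was hybridised to Mouse Clariom S arrays, read in 1 colour, per the labels' protocols. The values were deposited as log2 intensities. The submitters' processing notes name RMA and Partek 6.4 without roles; RMA subtracts background, brings arrays to a common distribution and combines probes, which compresses differences of dim probes. Its settings and any array batches are not given in the sources used.

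Of 22206 lines, 1 with missing values was left out. GEO's platform annotation gave 19572 of the 22205 probes exactly 1 symbol and 2633 no symbol, with 0 ambiguous; identifiers were checked against RefSeq (GRCm38.p6), which changed 0 symbols. Where a gene had several probes, the one with the highest mean was used. Means of the 4 groups, taken from the sample titles, were fitted with limma 3.58.1 (lmFit, eBayes) in R 4.3.3 on all 24 arrays, with 5 contrasts and two-sided tests. The code of the fit was tested on simulated data with independent normal noise for each probe. Such data hold no outlier arrays or batches, so the assumptions of the fit were not tested. Promoter and microRNA sequences came from RefSeq tables and oligonucleotide sequences from the labels.

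Every transporter could be named; full statistics went to up to 10 highest and 10 lowest called genes and to the role lists, and other lists were given by counts and up to 2 called genes per direction. Atf4, Adgre1 and the genes beside the miR-22 locus were added outside that rule after their values were seen. The members and lists were chosen with earlier results of these data known. Listed genes without a matching probe were not analysed here. Alternatives covered the variance moderation, a second normalization, centring, dim probes, the groups in the fit, array weights, a replicate block, the probe per gene and leaving out each array.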

Additional observations from a re-analysis of the deposited data

Results flagged for a closer look

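For the 36 transporters called in any comparison, the 4 groups gave 144 sets of arrays, of which 8 held an array whose gap to the nearest other array was large for its group's range (Dixon's critical value); chance alone flags about 1 set in 20. In sham with anti-miR-22, array 2 read 10.94 for Slc36a1 against 11.30 to 11.40 on the others, and array 3 read 16.55 for Slc7a8 against 16.93 to 17.02. In sham mock, array 3 read 15.35 for Slc6a20b against 15.67 to 15.78. In rhabdomyolysis mock, array 6 read high for Slc38a7 (10.00 against 8.89 to 9.30) and for Slc6a15 (9.40 against 8.21 to 8.61), and array 7 read low for Slc6a19 (11.11 against 11.76 to 12.04). In rhabdomyolysis with anti-miR-22, array 4 read 5.06 for Slc7a2 against 5.62 to 5.99, and array 2 read 13.79 for Slc7a7 against 14.63 to 15.10.

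The glycerol response of Slc43a2 differed between the oligonucleotides by -0.95 in the test of the difference itself (limma adjusted p = 0.0134).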

How the results depend on the processing

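The results were recomputed under 8 alternatives and without each of the 24 arrays in turn. No log2 difference among the 135 followed pairs of gene and comparison changed sign. A pair was followed when it was called, or when its difference was not small and a group mean reached the lowest array median. Small or dim differences without a call were not followed, so nothing is known of their sign. Of 84 called pairs of gene and comparison, 75 kept their call in every fit: 29 of 31 for glycerol with mock, 29 of 32 for glycerol with anti-miR-22, 2 of 3 for anti-miR-22 in sham, 14 of 17 in rhabdomyolysis and 1 of 1 for the difference between responses. The 9 others are named with their values in the text, save Slc38a10 for glycerol with mock, which lost its call under a second quantile normalization and under the block (adjusted p 0.0553 and 0.0619). Of 51 uncalled pairs that were followed, 9 were called in at least 1 fit. Among them was Slc7a13 in sham (adjusted p 0.0956 as fitted, and 0.0255 to 0.0444 in 3 fits), and the cause was not tested. Probes dimmer than the median of probe means hold 23 transporters, which had no value in that alternative.

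Without single arrays, transporters called higher and lower numbered 11 to 11 and 19 to 21 for glycerol with mock, and with anti-miR-22 9 to 11 and 20 to 23. Between the oligonucleotides they numbered 2 to 2 and 0 to 2 in sham, and 3 to 4 and 11 to 14 in rhabdomyolysis. For the difference they stayed at 0 and 1. The count of 1 lower in sham was 2 with array weights. The title numbers were shared between groups, but same-numbered arrays were at most weakly correlated (32 pairs, r -0.108 to 0.102, median 0.011). The highest values lay between the 2 rhabdomyolysis groups, with r of 0.049 to 0.102 for numbers 1 to 6 and -0.019 for number 7. An array correlated best with its own number in 16 of 64 cases, and the number to be met by chance was not computed. The numbers were not taken as pairs in the main fit. With the number as a replicate block, 11 rose and 19 fell with mock, 11 rose and 20 fell with anti-miR-22, 2 and 1 were called in sham, 4 and 14 in rhabdomyolysis, and 0 and 1 for the difference.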
